A study of Mus musculus with 6 samples.

Results

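The proteasome is the protease that degrades most ubiquitin-tagged proteins in the cell. The genes described here encode its constitutive parts, the tissue variants Psma8 and Psmb11, and proteins that act on or build the complex. They were taken by symbol: Psma, Psmb, Psmc, Psmd, Psme or Psmg followed by a number only, and Psmf1, leaving out the immunoproteasome subunits Psmb8, Psmb9 and Psmb10. The array annotation names 45 such genes, and 44 of them have a probe set paired with that gene alone. Of these, 43 were bright enough to be tested, among 10526 genes tested in all. RNA was measured in mouse Ba/F3-N cells, which are Ba/F3 pro-B cells of bone marrow origin transformed with the oncogenic G12D form of NRAS, on Affymetrix whole-genome mouse arrays, 1 array per sample. There were 3 samples given 1 µM N-arachidonoyl dopamine (NADA, a lipid made of arachidonic acid and dopamine) for 12 hours, set against 3 given an equal volume of vehicle for 12 hours. All 6 carried NRAS-G12D and grew in serum-containing medium, and no sample without the oncogene was compared. The labels do not say whether the line is 1 clone or whether replicates are separate cultures. The p-values therefore reflect only how these samples vary, which may be technical.

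In the 20S core, rings of alpha subunits gate the chamber and rings of beta subunits enclose it, and of the constitutive beta subunits Psmb5, Psmb6 and Psmb7 carry the cutting sites. The 19S cap binds ubiquitinated proteins, removes the ubiquitin and unfolds the substrate with a ring of ATPases, the Psmc proteins. Activators of the Psme family bind the same end of the core without needing ubiquitin, Psmf1 (PI31) was first described as an inhibitor of the core, and dedicated chaperones build the rings. In mammalian cells, transcription of subunit genes is raised together by NFE2L1, a factor that is released from the endoplasmic reticulum when proteasome activity is short. Rapidly growing blood cancer cells are known to depend on this protease, which is the target of drugs used against some of them.

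The deposited values are linear probe set intensities, and no detection calls stand beside them. Array medians lay between 37.95 and 39.11. Pearson correlations over genes were 0.9361 to 0.9395 between a NADA and a vehicle array and 0.9972 to 0.9984 within a group. Control probe sets also separated the groups. Those of poly-A RNAs of bacterial genes, spiked into the sample ahead of labelling, averaged a log2 intensity of 8.72 ± 0.21 in NADA and 8.14 ± 0.01 in vehicle (SD, n = 3 each). For Actb (actin), the 3′ probe set exceeded the 5′ one by a log2 ratio of 1.06 ± 0.05 in NADA and 0.67 ± 0.04 in vehicle, an aspect of RNA quality. The hybridization controls, added after labelling, averaged 10.08 ± 0.05 in NADA and 9.93 ± 0.10 in vehicle, a difference of 0.15. None of the 3 measures overlapped between groups (two-sided exact permutation test, p = 0.1, the smallest that 3 against 3 arrays allow), and their part in the results was not tested. Scaling each array to the poly-A RNAs (the poly-A scale below) moves every log2 fold change down by 0.58 and puts the median of all genes at -0.57 in place of 0.01, so directions given here are relative to the bulk of genes. The amount taken off varied among the NADA arrays (SD 0.21), so this scale also adds spread within that group. Of the pro-B and Ba/F3 markers, 6 of 11 lay above the dim limit (38.64, the median intensity over probe sets). These were Ptprc, Il3ra, Csf2rb, Csf2rb2 and the B-lineage genes Cd79b and Igll1. The B-lineage genes Cd79a, Vpreb1, Pax5 and Ebf1 and the receptor gene Kit lay below it. Summed over the list, these markers stood at 13762 to 13838 in NADA and 5961 to 6201 in vehicle. Most of each sum came from Csf2rb (mean 3337.2 in NADA and 990.0 in vehicle), Csf2rb2 (3573.9 and 702.5) and Ptprc (6448.6 and 4034.5). The markers of this list below the limit had similar means in both groups. Above the limit lay 2 of 5 markers of T and natural killer cells (sums 176 to 187 in NADA and 169 to 182 in vehicle). The same held for 2 of 4 of macrophages and granulocytes (368 to 384 in NADA and 180 to 207 in vehicle). It held for 0 of 1 of red cells (16 to 21 in NADA and 15 to 18 in vehicle). Of fibroblasts, epithelium and endothelium it held for 2 of 5 (206 to 221 in NADA and 224 to 232 in vehicle). Of 18193 genes with a probe set paired with 1 gene, 10526 lay above the limit, so these counts alone do not tell the lists apart. The macrophage gene Adgre1 averaged 279.6 in NADA and 108.9 in vehicle, and the part of these marker differences in the results was not tested.

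Of the 32 core and cap subunits 19 rose and 5 fell in NADA, with fold changes under 2-fold, whereas all 4 chaperones of the Psmg family and the nuclear activator Psme3 fell. The poly-A scale moves every gene down by 0.58, so these 5 stay lower there by construction. On it, 0 of the 32 subunits rose, beside 6.96% of all genes. Among the other chaperones and activators, Psmd5, Psmd10 and Psme4 rose before that scaling, Psmd9 fell and Psme1 was not called. Differences between roles were not tested. Of the 43 genes, 22 rose, 11 fell and 10 were not called (limma, adjusted p under 0.05 with Benjamini-Hochberg correction across every gene tested). Called genes were common in this experiment: 51.2% of the members rose and 25.6% fell, beside 35.8% and 37.5% of all genes, or 73.3% in either direction. The groups did not overlap for 35 of the 43 members and for 75.9% of all genes. A called change of at least 1.5-fold was seen in 8 members and in 28.8% of all genes. The median log2 fold change was 0.08 for the members and 0.01 for all genes. On the poly-A scale, 0 members rose and 33 fell (all genes: 6.96% and 76.1%), and the median of the members was -0.50 against -0.57. In these bulk samples, fewer cells of a type and less RNA per cell cannot be told apart.

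**Figure D1:**
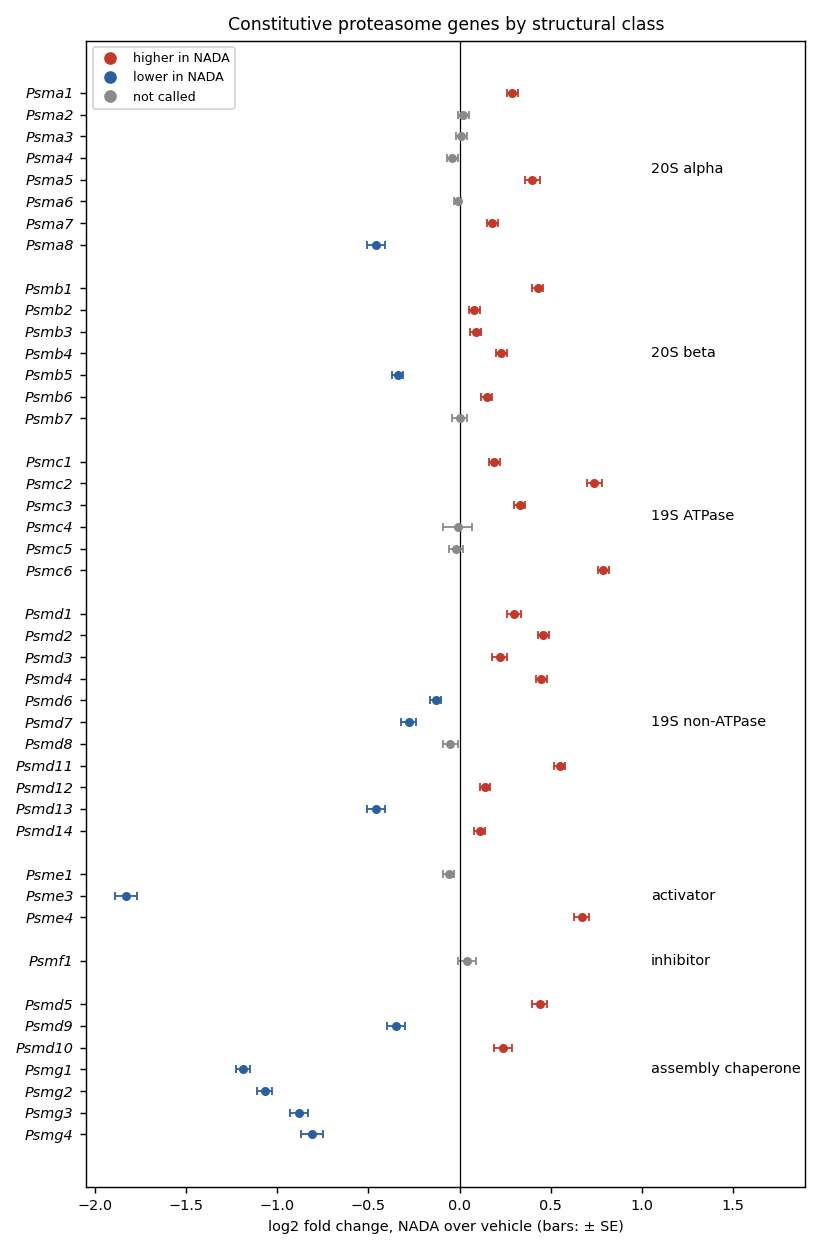
Log2 fold change of NADA over vehicle (x axis, bars ± standard error of the fit, 3 arrays per group) for the 43 tested genes, grouped by structural class from the 20S alpha ring at the top to the assembly chaperones at the bottom. Cap and core genes lie between -0.46 and 0.79, and Psme3 (-1.83) and Psmg1 to Psmg4 (-1.19 to -0.81) lie furthest left; scaling to the poly-A controls moves every point left by 0.58.

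Start regions are shown for 2 genes that rose (Psmc6 and Psme4) and 2 that fell (Psme3 and Psmb5), all described further on, so that they can be set beside each other. RefSeq windows (GRCm38.p6, 250 bases before to 50 after the start) matched 37 of the 45 genes by symbol, in 40 windows on 12 chromosomes. They were searched on both strands for TGACNNNGC, the antioxidant response element form that NFE2L1 and NFE2L2 read, and for CCAAT, which share no overlap in the windows printed. TGACNNNGC stood in 15% of the member windows and in 12.4% of all 32851 windows, and CCAAT in 32.5% and 37.4%. A motif of nuclear respiratory factor 1 was searched as well. It stood in 5% of the member windows, those of Psma2 and Psmg1, and in 0.971% of all windows, a difference that was not tested. The 6 genes with TGACNNNGC were Psmb5, Psmb6, Psmc6, Psmd9, Psmd12 and Psme4, of which Psmb5 and Psmd9 fell and the rest rose with the values as deposited, while 0 of the 6 rose on the poly-A scale. A match describes letters only. Capitals mark the matched letters, and the windows lie at chr14:45329574-45329873 (plus strand), chr11:30771525-30771824 (plus), chr11:101315963-101316262 (plus) and chr14:54617946-54618245 (minus).
Psmc6: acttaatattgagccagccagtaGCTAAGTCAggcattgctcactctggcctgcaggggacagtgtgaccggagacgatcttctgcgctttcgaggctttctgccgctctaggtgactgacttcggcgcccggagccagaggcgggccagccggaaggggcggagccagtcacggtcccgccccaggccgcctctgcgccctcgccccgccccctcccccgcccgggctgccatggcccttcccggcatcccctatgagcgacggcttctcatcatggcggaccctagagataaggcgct
Psme4: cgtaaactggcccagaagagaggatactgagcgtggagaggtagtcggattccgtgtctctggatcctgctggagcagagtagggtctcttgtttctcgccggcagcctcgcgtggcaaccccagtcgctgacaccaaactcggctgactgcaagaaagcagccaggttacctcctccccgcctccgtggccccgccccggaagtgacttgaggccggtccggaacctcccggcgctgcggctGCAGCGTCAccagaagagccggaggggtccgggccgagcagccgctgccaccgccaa
Psme3: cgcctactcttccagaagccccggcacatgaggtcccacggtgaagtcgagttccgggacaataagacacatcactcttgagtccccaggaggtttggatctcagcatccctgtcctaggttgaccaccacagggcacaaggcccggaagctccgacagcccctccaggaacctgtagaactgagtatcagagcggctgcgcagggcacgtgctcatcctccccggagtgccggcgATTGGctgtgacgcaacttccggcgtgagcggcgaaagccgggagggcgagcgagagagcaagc
Psmb5: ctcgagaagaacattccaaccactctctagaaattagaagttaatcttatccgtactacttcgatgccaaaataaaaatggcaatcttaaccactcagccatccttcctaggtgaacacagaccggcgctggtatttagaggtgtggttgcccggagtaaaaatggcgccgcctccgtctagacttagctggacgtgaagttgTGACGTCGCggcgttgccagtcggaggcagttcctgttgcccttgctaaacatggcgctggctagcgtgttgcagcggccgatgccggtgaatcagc
Each sequence runs in the direction of its gene. The first matched letter of TGACNNNGC stands 227 bases before the start in Psmc6 and 7 in Psme4, on the opposite strand in both, and 47 in Psmb5, on the strand of the gene. The CCAAT of Psme3 stands 14 bases before its start, on the opposite strand.

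In the alpha rings, which form the gate of the core, 3 of 8 genes rose, 1 fell and 4 were not called. That is 37.5% higher, near the 35.8% of all genes, and 12.5% lower, beside 37.5%. The median over the 8 was 0.02. Psma5 (alpha5) rose by 0.40 ± 0.04 (standard error), Psma1 (alpha6) by 0.29 ± 0.03 and Psma7 (alpha4) by 0.18 ± 0.03; on the poly-A scale these were -0.18, -0.29 and -0.40. Psma2 (0.02), Psma3 (0.01), Psma4 (-0.04) and Psma6 (-0.01), the alpha2, alpha7, alpha3 and alpha1 subunits, stayed within 0.04 of 0 and were not called. The gene that fell, Psma8, encodes an alpha4 variant known from the testis. Its intensities were 373.0, 375.7 and 357.6 in NADA and 538.3, 483.8 and 504.8 in vehicle. The groups did not overlap, and the log2 fold change was -0.46 ± 0.05 (limma adjusted p = 2.17e-07). Whether its single probe set also reads other alpha subunits was not tested.

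Among the beta subunits, 5 of 7 tested genes rose (71.4%, beside 35.8% of all genes), 1 fell (14.3%, beside 37.5%) and 1 stayed uncalled. Their median was 0.09. The 3 cutting subunits went separate ways. Psmb5, which carries the chymotrypsin-like site, had intensities of 1532.2, 1539.0 and 1488.6 in NADA and 1912.2, 1938.7 and 1915.2 in vehicle. Every NADA array lay below every vehicle array, a log2 fold change of -0.34 ± 0.03 (limma adjusted p = 4.49e-08). Psmb6, the caspase-like subunit, stood at 1642.8, 1650.6 and 1624.2 in NADA and 1449.7, 1468.3 and 1506.6 in vehicle. It rose by 0.15 ± 0.03, again without overlap (limma adjusted p = 4.03e-04). Psmb7, the trypsin-like subunit, had 763.2, 770.0 and 777.3 in NADA and 752.9, 774.6 and 778.8 in vehicle, values that overlap, with an adjusted p of 0.951. The 3 stood at -0.92, -0.43 and -0.58 on the poly-A scale. That scale moves every gene down, so Psmb5 stayed lower by construction, while Psmb6 turned.

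With the values as deposited, the largest change in the beta rings was that of Psmb1, the beta6 subunit, which has no cutting site. It had 2023.9, 2018.2 and 2125.5 in NADA and 1494.5, 1557.0 and 1520.4 in vehicle. The log2 fold change was 0.43 ± 0.03 (limma adjusted p = 5.41e-09), with all NADA arrays above all vehicle arrays. Psmb4 (beta7) rose by 0.23 ± 0.03, Psmb3 (beta3) by 0.09 ± 0.03 and Psmb2 (beta4) by 0.08 ± 0.03. The calls of the last pair are fragile: a second probe set of Psmb3 had -0.16 ± 0.04, called in the opposite direction, and Psmb2 was not called without NADA replicate 1 or 2 or vehicle replicate 2 or 3 (adjusted p = 0.104, 0.0709, 0.0828 and 0.246). A second bright probe set of Psmb4 gave 0.44 ± 0.07, close to the value of Psmb1. With the mean of probe sets Psmb4 stood at 0.34 and Psmb1 at 0.40. Psmb1, Psmb4, Psmb3 and Psmb2 had -0.15, -0.35, -0.48 and -0.50 on the poly-A scale. Psmb11, the beta5 form of the thymus cortex, was dim, at 20.1 ± 0.7 in NADA and 18.7 ± 1.3 in vehicle, and was not tested.

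**Figure D2:**
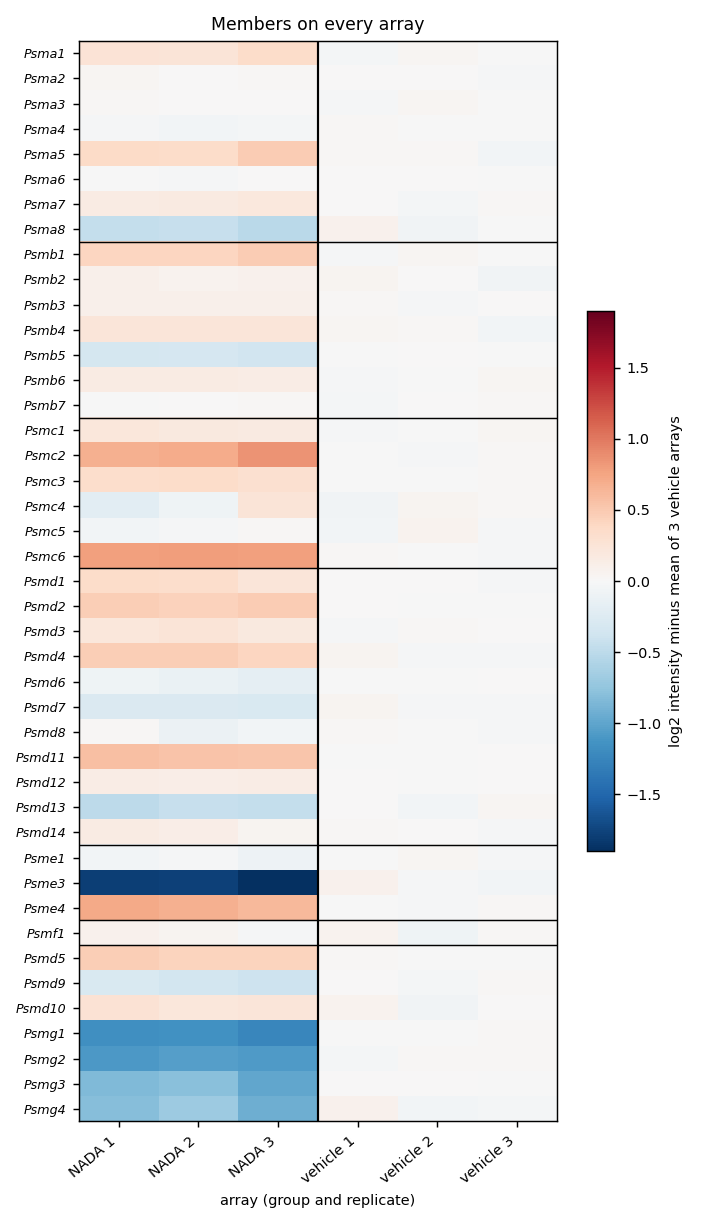
Log2 intensity of each tested gene (rows, by structural class) on each of the 6 arrays (columns, NADA left of vehicle), minus the mean of the 3 vehicle arrays, as a colour from blue (lower) to red (higher). The 3 NADA columns look alike for most genes; Psmc4 is an exception, with NADA replicate 3 above the other NADA arrays.

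Psmc6 and Psmc2 of the cap had the highest fold changes of the core and cap genes. Of its 17 genes 11 rose, 3 fell and 3 were not called (64.7% and 17.6%, beside 35.8% and 37.5% of all genes), with a median of 0.19; in the core these were 8, 2 and 5 of 15, with a median of 0.08. The medians were -0.38 for the cap and -0.50 for the core on the poly-A scale, and a difference between cap and core was not tested. Per array, the median over the cap relative to the vehicle mean was 0.21, 0.19 and 0.19 on the NADA arrays and 0.01, -0.01 and 0 on the vehicle arrays. For the core it was 0.10, 0.07 and 0.08 in NADA and 0.01, 0.01 and -0.01 in vehicle. Each NADA array thus showed the cap median above the core median.

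**Figure D3:**
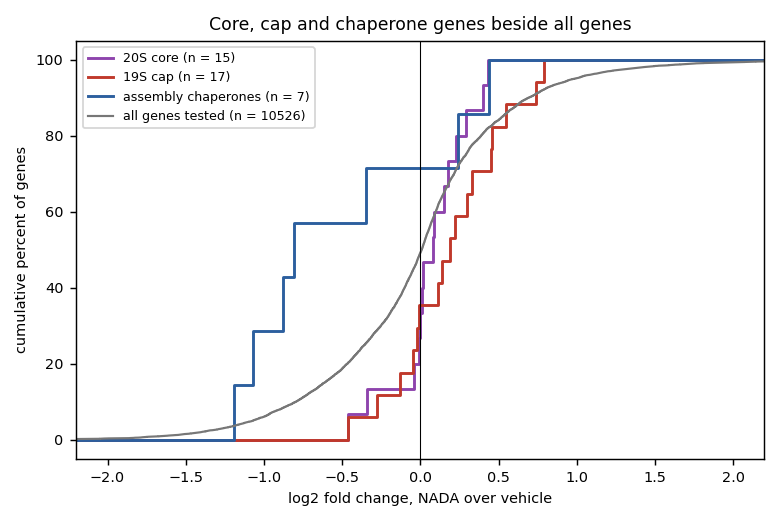
Cumulative percent of genes (y axis) against the log2 fold change of NADA over vehicle (x axis) for the 15 core genes, 17 cap genes, 7 assembly chaperones and all 10526 genes tested. The chaperone line begins at -1.19, and the lines of the core and the cap begin at -0.46; scaling to the poly-A controls moves all 4 lines left together by 0.58.

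In the ring of ATPases, 4 of 6 genes rose (66.7%, beside 35.8% of all genes) and 0 fell (beside 37.5% of all genes). Psmc6 (Rpt4) had the highest fold change of all members, with 3158.5, 3203.1 and 3166.2 in NADA and 1872.2, 1834.2 and 1808.6 in vehicle. The log2 fold change was 0.79 ± 0.03 (1.73-fold, limma adjusted p = 5.19e-13), and its other probe sets gave 0.69 and 0.78. Psmc2 (Rpt1) had 4136.7, 4233.4 and 4676.4 in NADA and 2595.3, 2565.3 and 2639.7 in vehicle. It rose by 0.74 ± 0.04 (1.67-fold, limma adjusted p = 3.94e-11), and a second bright probe set gave 0.74. In both genes the lowest NADA array lay well above the highest vehicle array, and both were no longer called on the poly-A scale, at 0.21 (adjusted p = 0.117) and 0.16 (adjusted p = 0.242).

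Psmc3 (Rpt5) rose by 0.33 ± 0.03 and Psmc1 (Rpt2) by 0.19 ± 0.03, and both were below 0 on that scale (-0.24 and -0.38). Psmc5 (Rpt6) had -0.02 ± 0.04 and was not called. Psmc4 (Rpt3) had 1099.2, 1195.1 and 1502.8 in NADA and 1203.4, 1308.4 and 1277.6 in vehicle, so that 1 array decides its value. With NADA replicate 3 left out it was called lower (-0.14, adjusted p = 0.00599), and a second probe set had -0.18 ± 0.04.

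Of the 11 cap genes without ATPase activity, 7 rose (63.6%, beside 35.8% of all genes) and 3 fell (27.3%, beside 37.5%). Psmd11 (Rpn6), a lid subunit that clamps the cap to the core, changed most among those that rose. It had 3979.9, 3869.4 and 3865.8 in NADA and 2667.4, 2652.6 and 2693.6 in vehicle, without overlap (0.55 ± 0.03, limma adjusted p = 2.19e-11). Its other bright probe sets gave 0.52 to 0.70, and dimmer ones above the dim limit 0.07 to 0.15, not called. With the mean of probe sets Psmd11 stood at 0.38, still called, below Psmd2 at 0.46. The scaffold subunits of the base, Psmd2 (Rpn1) and Psmd1 (Rpn2), rose by 0.46 ± 0.03 and 0.30 ± 0.04, and the ubiquitin receptor Psmd4 (Rpn10) by 0.45 ± 0.03. Smaller rises were those of the lid subunits Psmd3 (Rpn3, 0.22 ± 0.04) and Psmd12 (Rpn5, 0.14 ± 0.03) and of Psmd14 (Rpn11, 0.11 ± 0.03), the deubiquitinase of the lid. All 7 were below 0 on the poly-A scale, from -0.03 for Psmd11 to -0.47 for Psmd14.

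The 3 that fell are all lid subunits. Psmd13 (Rpn9) had 300.9, 313.8 and 309.3 in NADA and 427.4, 411.5 and 434.8 in vehicle, a log2 fold change of -0.46 ± 0.05, with a second probe set at -0.38 ± 0.05 and a pair of dimmer ones near 0 (0.06 and 0.05). Psmd7 (Rpn8), the partner of Psmd14 in the deubiquitinating unit, fell by 0.28 on the log2 scale and Psmd6 (Rpn7) by 0.13. These falls rest on the brightest probe set: dimmer ones gave 0.06 for Psmd7 and 0.05 for Psmd6. With the mean of probe sets Psmd7 stood at -0.11 and Psmd13 at -0.18, both called, and Psmd6 at -0.04, not called (adjusted p = 0.448). With unique-type probe sets Psmd13 stood at 0.06 and was not called (adjusted p = 0.493). Psmd8 (Rpn12) had -0.05 ± 0.04 and was not called. Within the lid, Psmd14 and its partner Psmd7 were thus called in opposite directions with the values as deposited, and both were lower on the poly-A scale (-0.47 and -0.85).

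The activators had the widest range of the classes, from -1.83 to 0.67. Psme3, which encodes the PA28 gamma ring of the nucleus, had the lowest fold change of the 43 genes. Its intensities were 91.1, 91.9 and 83.3 in NADA and 333.5, 309.4 and 303.5 in vehicle. The groups lay far apart, with the NADA mean 3.55-fold below that of vehicle (log2 fold change -1.83 ± 0.06, limma adjusted p = 1.72e-13), and a second probe set had -1.64 ± 0.07. Another, dim in both groups at a mean intensity of 15.1, had 0.23 ± 0.10. Of all genes tested, 5.99% were called and at least 2-fold lower, as were 3 of the 43 members: Psme3, Psmg1 and Psmg2.

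Psme4, which encodes PA200, a large single-chain activator, went the other way. It had 1612.8, 1566.4 and 1510.4 in NADA and 978.8, 969.9 and 999.0 in vehicle. The log2 fold change was 0.67 ± 0.04 (1.59-fold, limma adjusted p = 4.94e-11), and 5 more probe sets gave 0.35 to 0.81. On the poly-A scale it was 0.09 and not called (adjusted p = 0.488), while Psme3 stood at -2.41. Psme1, the PA28 alpha chain of the cytosolic activator that interferon gamma induces, had 1611.7, 1635.6 and 1564.3 in NADA and 1654.7, 1716.6 and 1637.4 in vehicle. Its NADA arrays were all just below all vehicle arrays, and the gene was not called (-0.06 ± 0.03, adjusted p = 0.131). The probe set of its partner Psme2 is paired with a second gene as well and was not used for it. Psmf1, the PI31 protein, had 249.2, 245.3 and 233.0 in NADA and 247.5, 222.6 and 239.5 in vehicle, which overlap (0.04 ± 0.05, adjusted p = 0.565).

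**Figure D4:**
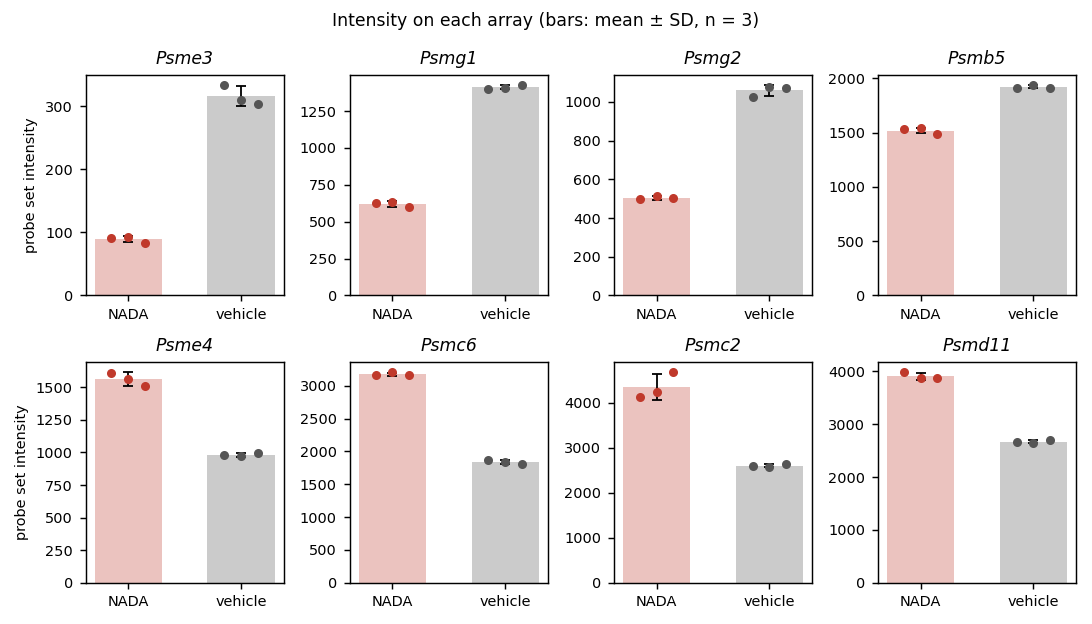
Probe set intensity (y axis, linear from 0) in NADA and in vehicle for 8 members; points are arrays, and bars and whiskers the mean ± SD of 3. In all 8 the NADA and vehicle points do not overlap: Psme3, Psmg1, Psmg2 and Psmb5 are lower in NADA and Psme4, Psmc6, Psmc2 and Psmd11 higher, of which Psmd11 falls just below vehicle (-0.03) once arrays are scaled to the poly-A controls.

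All 4 chaperones of the PAC family, which assemble the alpha ring and keep it from pairing early, fell, beside 37.5% of all genes. Psmg1 (PAC1) had 626.1, 634.9 and 600.5 in NADA and 1401.6, 1404.2 and 1426.5 in vehicle, 2.27-fold lower in NADA (-1.19 ± 0.04, limma adjusted p = 7.36e-14). Its partner Psmg2 (PAC2) had 497.1, 514.0 and 501.8 in NADA and 1026.6, 1076.0 and 1074.2 in vehicle, 2.10-fold lower in NADA (-1.07 ± 0.04, limma adjusted p = 4.20e-13), and a second bright probe set gave -1.10. The second heterodimer, Psmg3 (PAC3) and Psmg4 (PAC4), had log2 fold changes of -0.88 ± 0.05 and -0.81 ± 0.06. In these genes no NADA array reached the lowest vehicle array, and the median of the 4 was -0.97, or -1.55 on the poly-A scale. A dimmer probe set of Psmg3, at a mean intensity of 42.3, gave -0.31 ± 0.09.

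The chaperones of the 19S base were called in both directions. Psmd5 (S5b) rose by 0.44 ± 0.04 and Psmd10 (gankyrin) by 0.24 ± 0.05, while Psmd9 (p27) fell by 0.35 on the log2 scale. Both rises turned on the poly-A scale, to -0.14 and -0.34, and Psmd9 stood at -0.93. Over the 7 chaperones 2 rose (28.6%, beside 35.8% of all genes) and 5 fell (71.4%, beside 37.5%), with a median of -0.81. The per-array medians of the PAC genes, relative to the vehicle mean, were -0.97, -0.92 and -1.04 in NADA and 0 on each vehicle array, against 0.27, 0.22 and 0.22 in NADA and 0.02, -0.03 and 0 in vehicle for the base chaperones.

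Genes that work with the proteasome were taken from a list of 36, of which 25 were tested, 2 were dim and 9 were not analysed here. Of the 25, 14 rose (56%, beside 35.8% of all genes) and 9 fell (36%, near the 37.5% of all genes), and their median was 0.19. On the poly-A scale 3 rose (12%, beside 6.96%) and 17 fell (68%, beside 76.1%). Zfand2a, whose product AIRAP binds the cap under arsenite stress, had 940.0, 951.2 and 973.8 in NADA and 331.0, 319.9 and 314.9 in vehicle (1.57 ± 0.04, limma adjusted p = 1.05e-14). Its relative Zfand5, which stimulates the proteasome, rose by 0.88 ± 0.03. Vcp, the segregase that extracts ubiquitinated proteins, rose by 0.74 ± 0.03, and its cofactors Ufd1 and Nploc4 by 0.77 ± 0.05 and 0.43 ± 0.05. On the poly-A scale Zfand2a (0.99) and Zfand5 (0.30) were still called higher, whereas Vcp (0.16, adjusted p = 0.234), Ufd1 (0.19, adjusted p = 0.119) and Nploc4 (-0.15, adjusted p = 0.224) were not called.

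Nfe2l1 and Nfe2l2, whose products read the TGACNNNGC form, were called higher with the values as deposited, and Nfe2l1 turned on the poly-A scale. Of the same list, Nfe2l3 was dim and Ddi2 was not analysed here. Nfe2l1 had 433.8, 423.6 and 390.4 in NADA and 360.2, 346.4 and 355.0 in vehicle, a log2 fold change of 0.23 ± 0.05 (-0.35 on the poly-A scale). Ngly1, the deglycosylase that NFE2L1 needs to become active, rose by 1.07 ± 0.05 and Nfe2l2 by 0.63 ± 0.04 (on that scale 0.49, still called, and 0.05, not called with an adjusted p of 0.703). Among partners that fell, Uchl5, the deubiquitinase of the cap, had 1548.4, 1485.7 and 1571.7 in NADA and 2857.3, 2867.0 and 2654.2 in vehicle (-0.86 ± 0.04, limma adjusted p = 2.85e-12). Pomp, the chaperone of beta ring assembly, fell by 0.22 on the log2 scale, in the same direction as the PAC genes but by less; the difference was not tested. The other cap deubiquitinase Usp14 fell by 0.23, the shuttle receptor Rad23b by 0.33, the ubiquitin ligase Ube3c by 0.63 and the ubiquilin Ubqln4 by 0.85. Ngly1, Nploc4, Ufd1, Nfe2l2, Usp14, Rad23b, Ube3c and Ubqln4 were chosen for mention after their values were seen.

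The immunoproteasome subunits, which replace the 3 constitutive cutting subunits, moved unequally. Psmb9, the counterpart of Psmb6, had 1214.8, 1154.8 and 1115.2 in NADA and 1012.2, 984.8 and 975.4 in vehicle (0.23 ± 0.04). Psmb8, the counterpart of Psmb5, rose by 0.11 ± 0.04, a call lost without NADA replicate 2 (0.07, adjusted p = 0.141) or vehicle replicate 1 or 2 (adjusted p = 0.0674 and 0.058). Psmb10, the counterpart of Psmb7, had 353.6, 345.6 and 339.0 in NADA and 524.3, 536.2 and 511.7 in vehicle (-0.60 ± 0.04, limma adjusted p = 2.25e-09). The values on the poly-A scale were -0.35, -0.47 and -1.18 for Psmb9, Psmb8 and Psmb10.

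**Figure D5:**
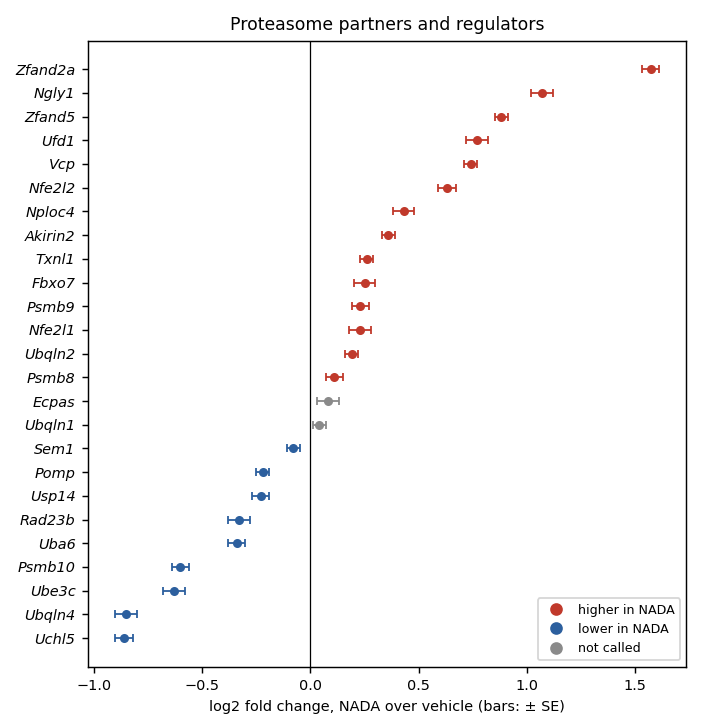
Log2 fold change of NADA over vehicle (x axis, bars ± standard error, 3 arrays per group) for the 25 tested partners and regulators, sorted from highest to lowest. Zfand2a (1.57) and Ngly1 (1.07) lie furthest right and Uchl5 (-0.86) and Ubqln4 (-0.85) furthest left; scaling to the poly-A controls moves every point left by 0.58, after which 3 are called higher.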

How the data were processed

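Per the labels, RNA of 6 samples was hybridised to Affymetrix mouse arrays. The authors' deposited values are linear intensities of 45101 probe sets, from 2.19 to 20113. The submitters' processing notes name MAS5 and RMA, without version or role, and the linear scale was read from the values. Here log2 was taken with no pseudocount and no further scaling. The 64 control probe sets were set aside, and probe sets with a geometric mean intensity under 38.64, the median of the rest, were left out as dim. The brightest probe set that the platform annotation pairs with 1 gene was kept, giving 10526 genes, of which 10487 matched RefSeq by gene ID. Groups were contrasted with limma 3.58.1 in R 4.3.3 (lmFit, then eBayes with an intensity trend). The test was two-sided, had no covariate, and used Benjamini-Hochberg adjustment across all genes. Fold changes are NADA over vehicle, and ± is the standard error of the fit unless SD is stated. The steps were tested on simulated data. Other scalings, filters, probe set rules, a replicate block and leaving out each array were tried.

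The members and gene lists were chosen with earlier results of these data known. Values on every array are given for the 3 highest and 3 lowest called members, the called member furthest from 0 in each class, Psme1 to Psme4, Psmf1 and Psmb5 to Psmb7, and for some others singled out after their values were seen. Of the partners, the immunoproteasome genes, Nfe2l1, Pomp, Adrm1 (not analysed here) and the 4 others with the smallest p were named by rule. Probe sets of type x measured Psma6 and Psmc2, and those of type s Psmd11, Psme4 and Psmf1; these types can bind several transcripts.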

Additional observations from a re-analysis of the deposited data

Results flagged for a closer look

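The bacterial poly-A control RNAs lie outside the comparison of genes and were brighter in NADA, at a mean log2 intensity of 8.72 against 8.14 in vehicle. The 24 probe sets separated the same arrays as the treatment (two-sided exact permutation test, p = 0.1, the smallest possible), and their part in the results was not tested. The NADA arrays were at 8.87, 8.81 and 8.49 and the vehicle arrays at 8.16, 8.13 and 8.14. The hybridization controls, added after labelling, were at 10.08 in NADA and 9.93 in vehicle.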

How the results depend on the processing

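Scaling to the poly-A controls changed most. It left 0 members higher and 33 lower, 3 partners higher and 17 lower, and medians of -0.50 (all members), -0.56 (alpha), -0.48 (beta), -0.31 (ATPases), -0.44 (other cap genes), -0.64 (activators), -0.54 (Psmf1) and -1.39 (chaperones). It turned Psma1 (-0.29), Psma2 (-0.55), Psma3 (-0.57), Psma5 (-0.18), Psma7 (-0.40), Psmb1 (-0.15), Psmb2 (-0.50), Psmb3 (-0.48), Psmb4 (-0.35), Psmb6 (-0.43), Psmb7 (-0.58), Psmc1 (-0.38), Psmc3 (-0.24), Psmd1 (-0.28), Psmd2 (-0.12), Psmd3 (-0.36), Psmd4 (-0.13), Psmd11 (-0.03), Psmd12 (-0.44), Psmd14 (-0.47), Psmf1 (-0.54), Psmd5 (-0.14) and Psmd10 (-0.34), and of the partners Psmb8 (-0.47), Psmb9 (-0.35), Ecpas (-0.49), Txnl1 (-0.31), Fbxo7 (-0.33), Akirin2 (-0.22), Ubqln1 (-0.54), Ubqln2 (-0.39), Nfe2l1 (-0.35) and Nploc4 (-0.15). Psmc2, Psmc6 and Psme4, and the partners Vcp, Ufd1 and Nfe2l2, lost their call. By its construction this scaling subtracts 1 amount from every gene of an array. The amounts were 8.87, 8.81 and 8.49 on the NADA arrays and 8.16, 8.13 and 8.14 on the vehicle arrays. Spread among the NADA arrays is thus added besides the shift, and its part in the lost calls was not tested. Quantile normalization gave medians of 0.15 (all members), 0.06 (alpha), 0.16 (beta), 0.35 (ATPases), 0.21 (other cap genes) and 0.02 (activators), and median centring 0.05, -0.02, 0.06, 0.23, 0.10 and -0.09 in the same order. The mean of probe sets gave 0.06 (alpha), 0.08 (beta) and -0.59 (chaperones) and turned Psmb3 (-0.03) and Ecpas (-0.16). Unique-type probe sets alone gave 0.08 for alpha and for beta and turned Psmb3 (-0.16) and Psmd13 (0.06); for these the cause was not tested. Counting Psmc3ip and Psme3ip1 moved the median of all members to 0.04. Asking for at least 1.5-fold, fewer calls by construction, left 3 members higher and 5 lower and 6 partners higher and 4 lower. Leaving out 1 array at a time gave 21 to 22 members higher and 11 to 12 lower, and medians of 0.05 to 0.10 (all members), 0.01 to 0.03 (alpha), 0.09 to 0.11 (beta), 0.26 to 0.28 (ATPases), 0.13 to 0.14 (other cap genes), -0.07 to -0.04 (activators), -0.01 to 0.07 (Psmf1) and -0.87 to -0.75 (chaperones). Psmb2 also lost its call with median centring (adjusted p = 0.252), a floor of 50 (0.0678), no dim filter (0.0653) or no intensity trend (0.12), and Psmb3 with median centring (0.0846). Calls were gained by Psma2 (0.06) and Psmb7 (0.10) with quantile normalization, Psma4 (-0.07) and Psme1 (-0.09) with median centring, Psma3 (0.09 and 0.17) with the mean of probe sets and with unique-type probe sets, and Psmd8 (-0.07) with array weights. With the replicate block, 22 members were higher and 11 lower and no member's call changed. Deviations of same-numbered arrays correlated at 0.165, -0.101 and 0.019, and those of differently numbered arrays at -0.209 to 0.186. With 3 arrays per group, these values cannot settle whether the numbers pair the arrays. Small differences are limited by 3 arrays per group.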

Other observations

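The probe set that the annotation pairs with both Psme2 and Psme2b had intensities of 941.6, 920.0 and 951.9 in NADA and 1282.8, 1310.5 and 1281.8 in vehicle, a log2 difference of -0.46 without overlap (two-sided exact permutation test, p = 0.1, the smallest that 3 against 3 arrays allow). It cannot be assigned to either gene. A pair of symbols that begin like members but name other proteins were left out: Psmc3ip, a partner of the meiotic recombinases, had 93.8, 80.5 and 92.9 in NADA and 317.4, 316.3 and 318.5 in vehicle (-1.84 ± 0.06, limma adjusted p = 2.77e-13), and Psme3ip1 had -0.05 ± 0.04 (adjusted p = 0.251).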
